A study of Mus musculus with 14 samples.

Results

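The transcriptional response to IFN-beta was measured in CD8 T cells labelled Morrbid-/-, with 7 of the 14 libraries of the study. All 7 libraries came from C57BL/6 mice labelled Morrbid-/-, and the cells were naive CD8 T cells of the spleen, sorted as CD62Lhi CD44lo. In 3 libraries the cells had been activated for 6 h by antibodies, anti-CD3 bound to the plate at 1 µg/mL and anti-CD28 in solution at 1 µg/mL. In the other 4 libraries 20 ng/mL recombinant IFN-beta was added to the same antibodies for the same 6 h. Activation through CD3 and CD28 and the labelled genotype were therefore shared by both groups, and IFN-beta was the labelled difference. The labels do not say how the Morrbid allele was made or whether replicates came from separate animals, so p-values measure only the spread between these libraries, which may be technical. The authors deposited the libraries with and without IFN-beta in separate tables, and the stimulation cannot be told apart from whatever else differed between those 2 sets. Weight is therefore given to changes of more than 2-fold. The comparison covers the 12539 genes present in both tables, of which 9953 had a mean of at least 10 reads over the 2 groups and were tested.

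The long noncoding RNA Morrbid is transcribed from a locus beside Bcl2l11, the gene of the pro-apoptotic protein BIM. IFN-beta is a type I interferon. It binds the receptor chains IFNAR1 and IFNAR2, whose kinases JAK1 and TYK2 phosphorylate STAT proteins. With IRF9 these form a complex that binds interferon-stimulated response elements in promoters and switches on a large set of antiviral genes. In CD8 T cells type I interferon also acts as an inflammatory signal beside antigen and costimulation.

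Reads of the targeted transcript were not fewer in the libraries labelled Morrbid-/- than in those labelled wild type, both without IFN-beta. Morrbid, listed as Gm14005, had 7, 4 and 7 reads in the 3 libraries labelled Morrbid-/- and 2, 4 and 2 in the 3 labelled wild type. That was 2.79 ± 0.464 and 1.02 ± 0.58 CPM, the count scaled to library size (SD, n = 3 and 3). On that scale the groups did not overlap, and the 2-sided exact permutation p was 0.1, the smallest that 3 against 3 libraries can give. Which stretch of the gene was targeted and which stretch these reads cover were not analysed here. With IFN-beta the gene was looked for and not found, so no level is given. So few reads, over an unknown stretch, cannot settle the genotype, and genotypes are given below as labels. Recovered reads numbered 1747634 to 2443158 in the libraries without IFN-beta and 7132515 to 7355337 in those with it, so low genes are measured less exactly without IFN-beta. Mitochondrial 16S rRNA took 18.9% of the reads in replicate 1 without IFN-beta, against 12.9% and 11.7% in the other replicates of that group and 9.05% to 10.5% with IFN-beta. That library stands apart, and leaving it out gave 607 genes higher and 229 lower by more than 2-fold, against 600 and 289 with it. The share of 45S rRNA was 1.67% to 1.83% without IFN-beta and 2.83% to 3.71% with it. The part of these shares in the results was not tested. Levels below are renormalized reads, that is, reads rescaled so that the 7 libraries share 1 effective size, in replicate order. Of the T cell markers, Cd3e was at 1530.0, 1378 and 1457 without IFN-beta and 1256, 1346, 1248 and 1348 with it (log2 change -0.16, SE 0.07; adjusted p at any fold = 0.0569). Cd8a was at 1171, 1315 and 1131 without IFN-beta and 1970.1, 1923, 1929.9 and 2095 with it (log2 change 0.72, SE 0.07; adjusted p at any fold = 1.01e-07). Both marker genes were present in all 7 libraries. Of 38 markers of B cells, monocytes, dendritic cells, NK cells, CD4 and regulatory T cells, neutrophils and erythroid cells, 9 were in both tables and 3 were tested. These were Cd68 (log2 change -0.08, SE 0.34; adjusted p at any fold = 0.851), Zbtb46 (log2 change 0.66, SE 0.23; adjusted p at any fold = 0.0218) and Cd40lg (log2 change -1.77, SE 0.44; adjusted p at any fold = 0.00199), and none passed the test for a change over 2-fold (Cd40lg did with equal totals, adjusted p = 0.046). The summed level of the 2 joined B cell markers, Cd79a and Cd79b, was 0 to 8.50 reads without IFN-beta and 10.3 to 23.6 with it. It was 19.8 to 31.6 and 36.2 to 43.2 for the 2 dendritic cell markers, 16.5 to 40.4 and 14.5 to 28.8 for the 2 monocyte markers, and at most 1.65 in any library for the NK cell marker. The part of these cells in the results was not tested. None of the neutrophil and erythroid markers was in both tables.

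The response was broad and asymmetric. With IFN-beta, 600 genes (6.03% of those tested) were higher and 289 (2.9%) were lower by more than 2-fold. These calls come from limma's treat test against a log2 change of 1, with Benjamini-Hochberg adjusted p under 0.05, and below "rose" and "fell" refer to them unless another rule is named. Without a fold threshold, 2995 genes (30.1%) were higher and 2568 (25.8%) lower. The median log2 change of all tested genes was 0.01. Most of the large changes were increases. Of the genes that rose, 195 changed by a log2 of 3 or more, which is 8-fold, and 56 of these by 5 or more. Of those that fell, 51 changed by 3 or more and 3 by 5 or more. In a bulk sample, fewer cells of a type and less RNA per cell cannot be told apart. The split of the calls into 67.5% higher and 32.5% lower depended on the scaling between libraries. It became 57.1% higher with upper-quartile scaling and 29.7% higher (387 genes higher, 916 lower) when libraries were scaled to equal totals, which moved the median of all genes to -0.50.

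**Figure D1:**
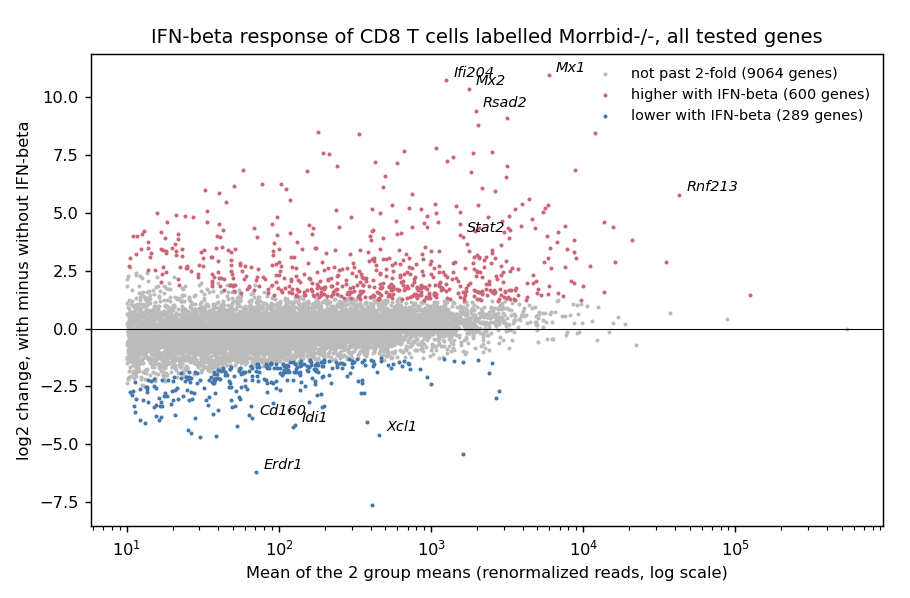
Log2 change with IFN-beta (y axis) against the mean of the 2 group means in renormalized reads (x axis, log scale) for the 9953 tested genes of the libraries labelled Morrbid-/-; red, 600 genes higher by more than 2-fold, blue, 289 genes lower, grey, the others. The rises reach further from 0 than the falls, and the interferon-induced genes Mx1, Ifi204, Mx2 and Rsad2 lie at the top.

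Promoters of the genes with the largest rises are shown first, because interferon-stimulated response elements are the sites through which type I interferon is known to act. Windows from 250 bases before to 50 bases after each annotated transcript start were taken from RefSeq (GRCm38.p6). The core motif searched, on either strand, was GAAA followed by any 2 bases and GAAA again. Of the 20 genes with the largest rises, 13 matched the promoter table and 5 of them held the motif. Those 5, and the highest-ranked matched gene without it, are given as the 250 bases before the start, 5′ to 3′ along the gene, with motif matches in capitals. Where the run of capitals is longer than 10 bases, 2 matches overlap, and capitals beginning TTTC are matches on the opposite strand.

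Rsad2: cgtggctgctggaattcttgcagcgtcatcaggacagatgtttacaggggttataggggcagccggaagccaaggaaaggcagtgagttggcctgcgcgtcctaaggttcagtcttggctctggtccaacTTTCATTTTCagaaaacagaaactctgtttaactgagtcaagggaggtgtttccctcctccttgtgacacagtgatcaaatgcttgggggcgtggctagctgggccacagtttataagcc

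Slfn5: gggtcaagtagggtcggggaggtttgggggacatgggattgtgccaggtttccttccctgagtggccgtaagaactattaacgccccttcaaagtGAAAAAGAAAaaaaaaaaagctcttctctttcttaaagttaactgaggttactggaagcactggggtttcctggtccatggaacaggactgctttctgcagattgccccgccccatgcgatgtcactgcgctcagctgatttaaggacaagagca

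Ifit3b: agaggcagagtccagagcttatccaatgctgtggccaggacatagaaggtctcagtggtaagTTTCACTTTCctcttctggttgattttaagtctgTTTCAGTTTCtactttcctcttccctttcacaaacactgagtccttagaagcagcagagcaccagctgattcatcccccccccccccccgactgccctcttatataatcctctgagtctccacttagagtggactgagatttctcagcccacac

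Oas3: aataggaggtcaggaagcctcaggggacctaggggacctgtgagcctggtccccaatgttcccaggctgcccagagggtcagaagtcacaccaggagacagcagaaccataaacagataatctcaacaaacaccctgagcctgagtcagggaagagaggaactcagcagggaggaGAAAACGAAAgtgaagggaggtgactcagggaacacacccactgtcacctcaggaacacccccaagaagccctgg

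Oas1a: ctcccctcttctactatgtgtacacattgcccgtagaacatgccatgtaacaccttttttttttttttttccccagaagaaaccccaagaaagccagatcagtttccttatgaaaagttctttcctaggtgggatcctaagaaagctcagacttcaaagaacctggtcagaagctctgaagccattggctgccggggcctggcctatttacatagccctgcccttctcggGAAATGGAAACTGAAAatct

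Trim30c: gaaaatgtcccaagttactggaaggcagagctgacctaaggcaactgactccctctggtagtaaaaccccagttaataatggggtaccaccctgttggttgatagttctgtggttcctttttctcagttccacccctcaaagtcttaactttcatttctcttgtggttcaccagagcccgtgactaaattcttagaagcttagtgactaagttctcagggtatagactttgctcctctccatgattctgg

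Rsad2 encodes viperin, an enzyme that makes a chain-terminating nucleotide, and its window is chr12:26456453-26456702 on the minus strand, with the motif beginning 120 bases before the start. The window of Slfn5, a Schlafen family gene, is chr11:82951852-82952101 on the plus strand, with the match 155 bases before an annotated start that lies inside the RefSeq gene, as does the whole window. In Ifit3b, whose family binds viral RNA, the window chr19:34607707-34607956 on the plus strand holds 2 separate matches, at 188 and 154 bases before the start, and this window and start also lie inside the RefSeq gene. Oas3 and Oas1a encode enzymes that make oligoadenylates from viral double-stranded RNA, a signal for RNA decay. The Oas3 window is chr5:120777660-120777909 on the minus strand, with a match 75 bases before the start. The Oas1a window is chr5:120907526-120907775 on the minus strand, with 2 overlapping matches at 20 and 14 bases before the start. The Trim30c window, chr7:104400779-104401028 on the minus strand, holds no match in these letters, which says nothing of sites outside it.

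Across all genes the share of promoter windows with the motif was larger for genes that rose further. It was 3.44% of the 32851 windows in the table, 3.29% of the windows of tested genes and 2.62% of those of genes not called. Among genes that rose it was 14.9%, or 88 of 589 windows. By size of the rise, the share was 7.2% at a log2 change of 1 to 2, 14% at 2 to 3, 20.8% at 3 to 5 and 42%, or 21 of 50 windows, at 5 or more. Among genes that fell, 1 of 277 windows, 0.361%, held it. A second motif, TTCNNNGAA, the core of the gamma-activated site, was searched in the same way. It was in 8.3% of all windows, 9.51% of those of genes that rose, 6.86% of those of genes that fell and 6.8% of those not called. Both motifs, which can overlap in a sequence, were in 149 of all windows. Windows of 1 gene can overlap, and these shares are descriptions without a test.

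Most of the largest rises started from a handful of reads. Mx1, which like Mx2 is annotated by RefSeq as a transcribed pseudogene, belongs to a family of dynamin-like antiviral GTPases. It was at 3.30, 4.25 and 8.31 without IFN-beta and 11580.3, 11673, 12094 and 11963 with it (log2 change 10.96, SE 0.17, adjusted p = 1.66e-19). Every library with IFN-beta lay over 1000 times above every library without it. Its neighbour Mx2 was at 0, 2.12 and 4.99 without IFN-beta and 3576, 3569, 3505 and 3453 with it (log2 change 10.38, SE 0.35, adjusted p = 2.43e-14), and its log2 change was 9.70 without replicate 1 and 11.03 without replicate 3 of the libraries without IFN-beta. The DNA sensor gene Ifi204 was at 0, 2.12 and 0 without IFN-beta and 2653, 2490.4, 2588 and 2342 with it. That is 1 read in all without IFN-beta against 13400 with it, a rate 4230 times as high (95% interval of counting error 759 to 167000). Both Mx genes lie side by side, at chromosome 16, 97447035 to 97462906 and chromosome 16, 97536081 to 97560901 in GRCm38.p6. Rsad2 was at 3.30, 2.12 and 13.3 without IFN-beta and 4164, 3948, 3977 and 3644 with it (log2 change 9.41, SE 0.31, adjusted p = 2.01e-14), and its log2 change was 10.10 without replicate 3 of the libraries without IFN-beta. Oas2, of the oligoadenylate synthetases, was at 11.5, 8.50 and 4.99 without IFN-beta and 3964, 3917, 4230.1 and 4038 with it (log2 change 8.82, SE 0.16, adjusted p = 2.55e-18). Slfn5, which had reads in every library, was at 67.6, 70.1 and 61.5 without IFN-beta and 23734, 23719, 24147 and 24513 with it (log2 change 8.48, SE 0.07, adjusted p = 2.23e-23). The TRIM gene Trim30c was at 4.95, 8.50 and 24.9 without IFN-beta and 6004, 6539.7, 6256 and 6250.2 with it, and its log2 change of 9.11 was 9.73 without replicate 3 of the libraries without IFN-beta. Ccrl2, an atypical chemokine receptor, had no read in any library without IFN-beta and 361, 332, 361 and 389 with it, at least 202-fold higher against a floor of 3 reads over the group. Usp18, which removes ISG15 from proteins and damps signalling at IFNAR2, rose from 46.5 ± 0.290 to 6308 ± 153 (SD, n = 3 and 4; log2 change 7.05, SE 0.07, adjusted p = 7.29e-22). The 20 genes with the largest rises, and the 20 with the largest falls, were chosen among genes whose groups did not overlap, so that gap is part of the choice. Among all tested genes, the groups did not overlap for 5578, or 56%.

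**Figure D2:**
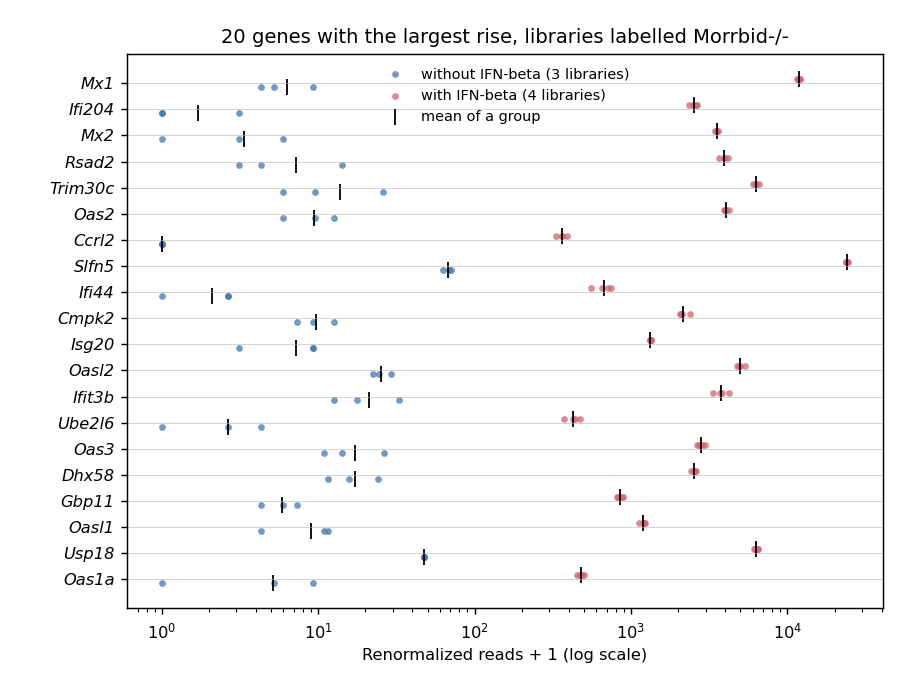
Renormalized reads plus 1 (x axis, log scale) of the 20 genes with the largest rises (y axis) in each library labelled Morrbid-/-; blue points, 3 libraries without IFN-beta, red points, 4 libraries with it, black ticks, group means. All red points of a gene lie to the right of all its blue points, as the choice of genes required, from Mx1 at the top, with a log2 change of 10.96, to Oas1a at the bottom, with 7.03.

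The families described in the next paragraphs, from the list of OAS, Mx and related genes to the ADP-ribosyltransferases, make up 12 lists of interferon-linked genes. Their 131 genes in both tables took 1.14% to 1.41% of all reads without IFN-beta and 12.8% to 13.3% with it. Of the 130 tested, 119 rose, none fell and 11 did not pass. In wild-type libraries the same genes took 0.857% to 0.957% and 13.5% to 13.7%. The lists were drawn up with earlier results of these data known, so their counts describe the families and are not independent evidence of a direction. Leaving out any 1 library changed none of the counts of genes that rose in these 12 lists.

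Changes were small at the receptor and larger among the genes of the transcription complex it activates. Ifnar1 was at 673, 839 and 808 without IFN-beta and 1306, 1302, 1320.1 and 1228 with it (log2 change 0.74, SE 0.08; adjusted p at any fold = 2.60e-07). Ifnar2 was at 198, 259 and 209.5 without IFN-beta and 406, 457, 391 and 384 with it (log2 change 0.89, SE 0.10; adjusted p at any fold = 7.56e-07). Tyk2 was at 204, 257 and 251 without IFN-beta and 411, 401, 429 and 377 with it (log2 change 0.77, SE 0.10; adjusted p at any fold = 1.92e-06). Jak1 was at 5343, 5231 and 5173 without IFN-beta and 5569, 5421, 5594 and 5727 with it (log2 change 0.09, SE 0.07; adjusted p at any fold = 0.276). None of the 4 passed the test for more than 2-fold, though the libraries of the 2 groups did not overlap. The transcription complex genes Stat2 and Irf9 did rise. Stat2 was at 173, 189 and 166 without IFN-beta and 2959.7, 3032, 2828 and 2812 with it (log2 change 4.04, SE 0.07, adjusted p = 2.55e-17). Irf9 was at 363, 448 and 417 without IFN-beta and 1499.5, 1504, 1517 and 1565 with it (log2 change 1.90, SE 0.08, adjusted p = 2.05e-08). Stat2 moved further than Irf9, with every library with IFN-beta over 10 times above every library without it. In the whole list of receptor and JAK-STAT genes 5 of 16 rose and none fell, with a median log2 change of 0.84. They included Jak2 (log2 change 1.72) and Stat3 (1.55), whose calls were lost when libraries were scaled to equal totals.

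Among the interferon regulatory factors 4 of 8 rose. Irf7, the factor that amplifies interferon production, went from 64.3, 63.7 and 56.5 to 3878, 4197, 4171 and 4913 (log2 change 6.10, SE 0.09, adjusted p = 1.95e-19). Irf2 changed by 1.85 and Irf1 by 1.26 on the log2 scale. The call of Irf1 was lost without replicate 3 of the libraries without IFN-beta and without replicate 2 of those with it (adjusted p 0.0604 to 0.0741), and with equal totals or upper-quartile scaling. Irf3, which is activated by phosphorylation, had a log2 change of -0.03, and Irf4, induced by antigen receptor signals, of -0.93; neither passed. Feedback inhibitors rose as well, in 5 of 11 cases. Socs1, which blocks JAK kinases, was at 42.9, 48.9 and 39.9 without IFN-beta and 205, 227, 231 and 193 with it (log2 change 2.26, SE 0.13, adjusted p = 2.86e-07). Cish (2.80), Nmi (2.49) and Socs3 (2.04) rose by similar log2 changes. In the same list Ptpn6, which encodes the phosphatase SHP-1, fell (log2 change -1.52, SE 0.14, adjusted p = 0.00918), a call lost without replicate 2 of the libraries without IFN-beta (adjusted p = 0.068). Of the interferon genes themselves only Ifng was in both tables and tested, at 11.5, 8.50 and 11.6 without IFN-beta and 19.7, 8.37, 5.17 and 7.49 with it, with overlapping groups.

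The effector families that act on viral RNA rose throughout. All 10 tested OAS, Mx and related genes rose, with a median log2 change of 7.31. Besides those above, Oasl2 went from 24.4 ± 3.52 to 4989.8 ± 264, Oas3 from 16.2 ± 8.19 to 2787 ± 146 and Oasl1 from 7.96 ± 4.05 to 1189.6 ± 45.9 (SD, n = 3 and 4). Oas1a had a log2 change of 7.03, which was 7.76 without replicate 1 and 6.12 without replicate 3 of the libraries without IFN-beta. It shares 47.6% of its 75-base stretches with other genes, so how its reads were assigned is uncertain. All 6 tested IFIT genes rose, with a median of 5.79. Ifit1, which binds RNA caps that lack methylation, was at 159.9, 157 and 136 without IFN-beta and 19679.7, 16578, 16697 and 17136 with it (log2 change 6.85, SE 0.08, adjusted p = 9.70e-21). Ifit2 was at 339.6, 293 and 331 without IFN-beta and 9764, 10595, 10445 and 11733 with it (log2 change 5.04, SE 0.08, adjusted p = 8.87e-19). Ifit3 (6.54) and Ifit3b (7.60) share 41.1% and 35.7% of their 75-base stretches with other genes, and how reads were divided between them is uncertain.

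ISG15 is a ubiquitin-like protein that is attached to other proteins in infected cells, and every tested gene of its pathway rose (6 of 6, median 5.79). Isg15 itself was at 3.30, 0 and 3.33 without IFN-beta and 222, 205, 170.0 and 216 with it (log2 change 6.26, SE 0.38, adjusted p = 9.90e-10), and its log2 change was 5.59 without replicate 2 of the libraries without IFN-beta. Uba7, which activates ISG15, was at 134, 155 and 149.7 without IFN-beta and 1578, 1739, 1796 and 1608 with it (log2 change 3.52, SE 0.08, adjusted p = 3.08e-15). Ube2l6, which carries it, had 3 reads without IFN-beta and 2277 with it, a rate 239 times as high (95% interval of counting error 81.8 to 1160). Herc6, the mouse ligase, went from 286 ± 39.03 to 11447 ± 156 (log2 change 5.33, SE 0.08, adjusted p = 5.58e-19). Of the antiviral restriction factors 16 of 17 rose, with a median of 3.81. They included the RNA-activated kinase Eif2ak2 (194 ± 9.50 to 6983 ± 333; log2 change 5.16, SE 0.07, adjusted p = 1.66e-19), the exonuclease Isg20 (6.23 ± 3.55 to 1327 ± 13.5; log2 change 7.68, SE 0.26, adjusted p = 3.71e-14) and the nucleotide kinase Cmpk2 (8.75 ± 2.67 to 2162 ± 142; log2 change 7.83, SE 0.14, adjusted p = 2.28e-18). Ifi44 had 2 reads without IFN-beta and 3550 with it, a rate 560 times as high (95% interval of counting error 155 to 4630). Ifi27 was the exception among the tested restriction factors, with a log2 change of -0.10.

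The list of PML-body and other interferon-linked nuclear genes rose in full, 24 of 24, with a median of 4.20. Rnf213, a large ubiquitin ligase, was at 1396, 1519 and 1635 without IFN-beta and 84623, 88972, 87761 and 74927 with it (log2 change 5.79, SE 0.09, adjusted p = 4.34e-19). It alone took 0.0347% to 0.0451% of the reads without IFN-beta and 1.36% to 1.64% with it. Phf11a (9.30 ± 2.68 to 987 ± 38.4; log2 change 6.62, SE 0.15, adjusted p = 1.39e-16), Tor3a (26.7 ± 7.65 to 1088 ± 32.7; log2 change 5.33, SE 0.14, adjusted p = 1.82e-15) and the granule protein gene Tdrd7 (27.3 ± 5.32 to 892 ± 46.8; log2 change 4.995, SE 0.12, adjusted p = 7.15e-16) behaved alike in that no library of one group reached the range of the other. Pml (4.23) and Daxx (4.66), core proteins of PML bodies, rose too.

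Sensors of foreign nucleic acid rose in 8 of 12 cases, with a median of 3.29. The 3 cytoplasmic RNA helicases of the RIG-I family all rose. Ifih1, the MDA5 gene, was at 90.7, 70.1 and 93.1 without IFN-beta and 5161, 5376, 4998 and 5252 with it (log2 change 5.93, SE 0.09, adjusted p = 4.24e-19). Dhx58, the LGP2 gene, went from 16.2 ± 6.45 to 2526 ± 65.1 (log2 change 7.26, SE 0.16, adjusted p = 6.51e-17), and Ddx58, the RIG-I gene, had a log2 change of 4.26. The endosomal RNA receptor Tlr7 was at 23.1, 29.7 and 21.6 without IFN-beta and 1484, 1436, 1557 and 1387 with it (log2 change 5.84, SE 0.11, adjusted p = 8.61e-18). The Z-nucleic-acid sensor Zbp1 was at 153, 215 and 158 without IFN-beta and 7879.6, 8925, 8255 and 9207 with it (log2 change 5.62, SE 0.10, adjusted p = 3.96e-18). The members that did not pass were Mavs (0.28), the adaptor of those helicases, Tmem173 (1.25), which encodes STING, the nuclease gene Trex1 (0.20, with 93.4% of its stretches shared) and the DNA sensor Aim2 (0.48). Mb21d1, the gene of the DNA sensor cGAS, rose by 1.88, a call lost with equal totals. Aim2 was also the only one of the 10 tested pyrin-HIN genes that did not rise. Of its family, which lies in a cluster on chromosome 1, Ifi203 was at 1058, 1274 and 1058 without IFN-beta and 16287, 16576, 16207 and 16078 with it (log2 change 3.85, SE 0.08, adjusted p = 1.25e-16). Mndal was at 1436, 1706 and 1648 without IFN-beta and 15900.1, 15944, 16028 and 15834 with it (log2 change 3.32, SE 0.07, adjusted p = 1.99e-15). Mnda had 1 read without IFN-beta and 428 with it, a rate 135 times as high (95% interval of counting error 24.1 to 5350), and shares 63.6% of its stretches with other genes.

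The guanylate-binding proteins and the immunity-related GTPases, which attack the vacuoles of intracellular pathogens, are induced by interferon, and both of these lists rose in full. Of the guanylate-binding proteins 10 of 10 rose, with a median of 3.996. Gbp2 was at 984, 1215 and 1049 without IFN-beta and 25934, 27238, 26571 and 25580.1 with it (log2 change 4.61, SE 0.08, adjusted p = 5.48e-18). Gbp5 was at 135, 269.7 and 274 without IFN-beta and 6205, 7050.4, 5742 and 6288 with it (log2 change 4.86, SE 0.16, adjusted p = 2.18e-13). Gbp7 was at 570.4, 769 and 677 without IFN-beta and 10826, 11001, 10569 and 10849 with it (log2 change 4.02, SE 0.08, adjusted p = 2.52e-16). Gbp11 started lower and had a larger change (4.88 ± 1.52 to 850.0 ± 41.2; log2 change 7.21, SE 0.16, adjusted p = 8.44e-17). Gbp10 and Gbp6 share 77.8% and 67.3% of their stretches with other genes, so their separate values are uncertain. In the list of immunity-related GTPases 7 of 7 rose, with a smaller median of 2.47. The list also counts Gvin1, which is of the separate family of very large interferon-inducible GTPases. Iigp1 was at 379, 489 and 471 without IFN-beta and 9659, 9250.1, 8909.7 and 8907 with it (log2 change 4.37, SE 0.08, adjusted p = 3.00e-17). Irgm1 was at 927, 1011 and 807 without IFN-beta and 4446, 4486, 4252 and 4387 with it (log2 change 2.27, SE 0.08, adjusted p = 5.85e-11). Igtp was at 948, 1232 and 1026 without IFN-beta and 6407, 6607, 6332 and 6411 with it (log2 change 2.60, SE 0.08, adjusted p = 3.26e-12). All 3 had many reads without IFN-beta already. Gvin1, Tgtp2 and Tgtp1 share 98.3%, 81.3% and 77.2% of their stretches with other genes, so these 3 of the 7 are uncertain as separate genes.

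Of the TRIM ubiquitin ligases 11 of 14 rose (median 2.74). The 4 Trim30 genes, neighbours on chromosome 7, led the list. Trim30a was at 615, 749.8 and 670.2 without IFN-beta and 15148, 14685, 14323 and 13929.9 with it (log2 change 4.42, SE 0.08, adjusted p = 6.57e-18). Trim30d was at 97.3, 93.5 and 96.5 without IFN-beta and 3982, 4099, 3945 and 3817 with it (log2 change 5.36, SE 0.07, adjusted p = 1.25e-19). Trim30b was at 1.65, 2.12 and 3.33 without IFN-beta and 208, 231, 245 and 193 with it (log2 change 6.06, SE 0.23, adjusted p = 4.83e-13). No library without IFN-beta reached the range of those with it for any of them. Trim21, an antibody receptor in the cytosol, was at 179.7, 229 and 188 without IFN-beta and 1911, 2225, 2007 and 2062 with it (log2 change 3.37, SE 0.09, adjusted p = 2.74e-14). Trim34b (0.17), Trim5 (0.53) and Trim12a (1.07) did not pass. All 7 tested Schlafen genes, which restrict protein synthesis and cell growth, rose with a median of 3.84. Slfn8 was at 295, 295 and 283 without IFN-beta and 10351, 11100.4, 10233 and 11774 with it (log2 change 5.22, SE 0.07, adjusted p = 1.66e-19), whereas Slfn2, known for keeping T cells quiescent, rose by 1.68, a call lost with equal totals. Among the ADP-ribosyltransferase genes and the ligase gene Dtx3l 6 of 9 rose. Parp14 went from 1458 ± 150.3 to 30176 ± 558 (log2 change 4.38, SE 0.08, adjusted p = 1.55e-17), Parp9 from 409.5 ± 73.7 to 6124 ± 113 (log2 change 3.92, SE 0.09, adjusted p = 2.43e-15) and Parp12 from 51.9 ± 19.3 to 2068 ± 34.3 (log2 change 5.37, SE 0.17, adjusted p = 6.69e-14). Tiparp (-0.04), Parp8 (0.11) and Parp3 (1.21) did not pass.

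Antigen presentation rose with a split between the 2 kinds of proteasome. All 5 immunoproteasome genes rose, with a median log2 change of 1.98, while none of the 25 genes of the constitutive proteasome did (median -0.01). Psmb10 was at 54.4, 55.2 and 63.2 without IFN-beta and 295, 341, 341 and 385 with it (log2 change 2.54, SE 0.12, adjusted p = 2.83e-09). Psmb8 was at 219, 185 and 221 without IFN-beta and 985, 1012, 1041 and 1116 with it (log2 change 2.31, SE 0.09, adjusted p = 2.06e-10). The activator subunit Psme1 was at 1883, 1697 and 1616 without IFN-beta and 6270.2, 6816, 6811 and 7525 with it (log2 change 1.98, SE 0.08, adjusted p = 3.78e-09). The groups did not overlap for any of these subunits. Psmb9 (1.92) and Psme2 (1.499) rose less, and their calls were lost with equal totals. Of the constitutive genes, Psma2 had the largest change (log2 change 0.88, SE 0.13; adjusted p at any fold = 1.25e-05). In the MHC class I list 14 of 19 rose, with a median of 1.66. The peptide-loading gene Tapbp was at 666, 735 and 792 without IFN-beta and 5772, 5511, 5531 and 5246 with it (log2 change 2.92, SE 0.07, adjusted p = 3.51e-14), and the transporter genes Tap1 (1.98) and Tap2 (1.85) rose with it. H2-T23 was at 361, 491 and 381 without IFN-beta and 1891, 2118, 2024 and 2235 with it (log2 change 2.34, SE 0.09, adjusted p = 7.37e-10). The nonclassical H2-T24 was at 54.4, 78.6 and 66.5 without IFN-beta and 1083, 1183, 1079.9 and 1148 with it (log2 change 4.07, SE 0.11, adjusted p = 9.10e-15). The classical class I genes H2-K1 (1.39) and H2-D1 (1.47) rose by less, and with equal totals their calls were lost and 9 members of the list rose. B2m, their light chain, changed by 0.98 and did not pass. H2-T22 and H2-Q6 share 39.97% and 21.1% of their stretches with other genes. The general chaperones of folding, Canx (-0.38), Calr (0.35) and Pdia3 (0.77), did not pass. Of the Ly6 and Ms4a surface protein genes 8 of 9 rose (5 with equal totals), led by Ly6a, the Sca-1 gene, at 39.6, 42.5 and 39.9 without IFN-beta and 869, 718, 839.7 and 748 with it (log2 change 4.25, SE 0.10, adjusted p = 1.62e-15).

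**Figure D3:**
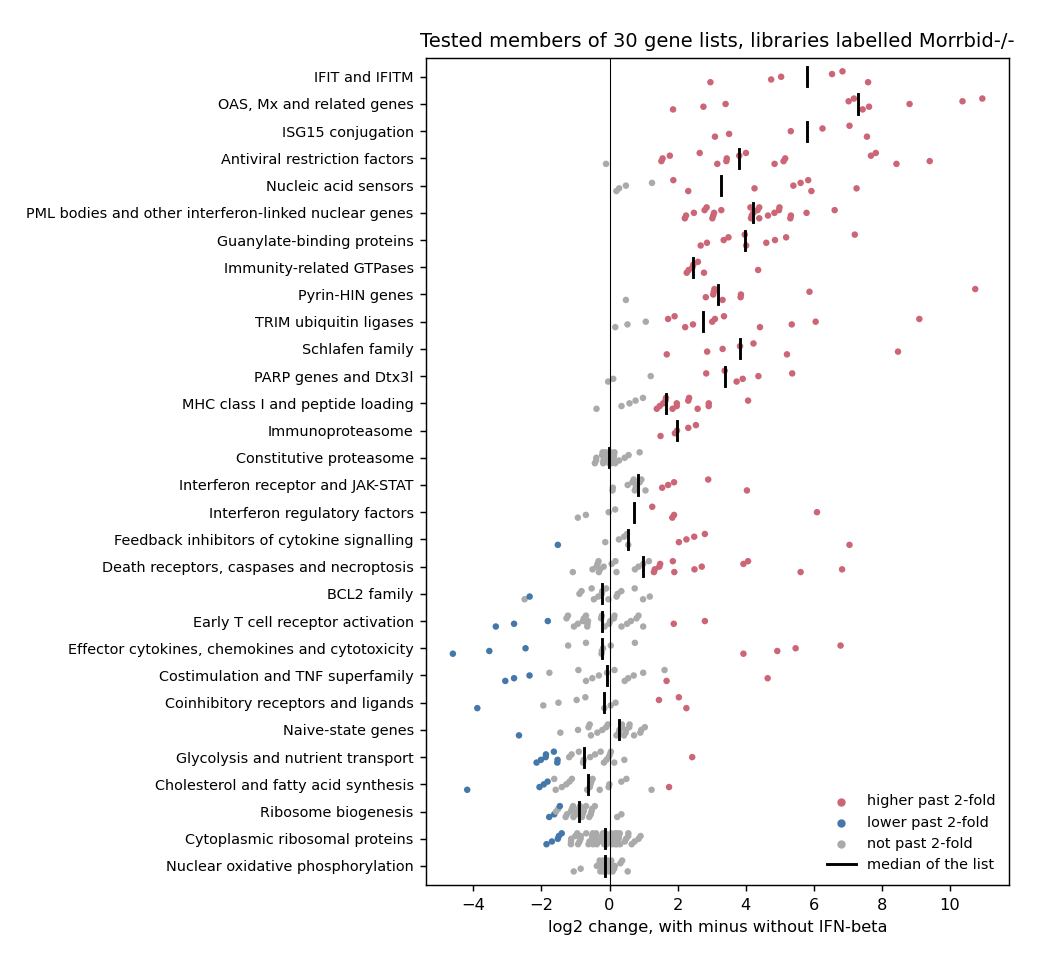
Log2 change with IFN-beta (x axis) of every tested member of 30 of the gene lists (y axis) in the libraries labelled Morrbid-/-; red, higher by more than 2-fold, blue, lower, grey, neither, black bars, list medians. The 12 interferon-linked lists, in the upper rows, lie to the right with medians from 2.47 for the immunity-related GTPases to 7.31 for OAS, Mx and related genes, the constitutive proteasome is centred near 0, and ribosome biogenesis lies to the left at -0.90.

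Several death ligand, caspase and necroptosis genes rose, while 1 gene of the BCL2 family passed the test. Of the 27 tested death receptor, caspase and necroptosis genes 12 rose and none fell. Mlkl, the executioner of necroptosis, was at 3.30, 0 and 3.33 without IFN-beta and 287, 323, 313 and 285 with it (log2 change 6.84, SE 0.37, adjusted p = 1.03e-10), and its log2 change was 6.16 without replicate 2 of the libraries without IFN-beta. Tnfsf10, the gene of the death ligand TRAIL, was at 47.8, 61.6 and 66.5 without IFN-beta and 919, 917, 849 and 932 with it (log2 change 3.94, SE 0.11, adjusted p = 2.06e-14). Casp8 (2.497) and Casp4 (log2 change 2.71, SE 0.29, adjusted p = 1.38e-04) rose, and so did Casp1, whose log2 change of 4.07 was 3.44 without replicate 2 and 4.76 without replicate 3 of the libraries without IFN-beta. Fas rose by 1.86. With equal totals the call of Fas was lost and 6 of the list rose. Casp9 (-0.32) and Fadd (-0.31) did not pass. Of 17 tested BCL2 family genes none rose. Bbc3, which encodes the pro-apoptotic protein PUMA, was the only one called lower, at 89.03, 89.2 and 61.5 without IFN-beta and 18.2, 9.89, 12.6 and 20.2 with it (log2 change -2.35, SE 0.27, adjusted p = 7.00e-04). Bcl2a1d, of the anti-apoptotic A1 genes, had a larger change that just missed the test (log2 change -2.495, SE 0.52, adjusted p = 0.0542), and shares 67.5% of its stretches with other genes. It passed without replicate 2 of the libraries without IFN-beta, without replicate 1 of those with it, with equal totals and upper-quartile scaling, and by edgeR, DESeq2 and limma voom (adjusted p 0.00173 to 0.0367). Bcl2l11, the neighbour of Morrbid, was at 521, 435 and 506 without IFN-beta and 399, 349, 333 and 279 with it (log2 change -0.53, SE 0.11; adjusted p at any fold = 4.14e-04), so all 4 libraries with IFN-beta lay below all 3 without it, by less than the 2-fold threshold. Mcl1 (1.18, past the test without replicate 1 of the libraries without IFN-beta, adjusted p = 0.0338, and by edgeR), Bcl2 (0.24) and Bcl2l1 (-0.03), which protect from apoptosis, did not pass. Of the 10 tested genes around Morrbid none passed in either direction. Polr1b had the largest change among them, at 199, 191 and 189.6 without IFN-beta and 92.4, 73.1, 66.5 and 45.7 with it (log2 change -1.51, adjusted p = 0.0587). It did pass without replicate 1 of the libraries with IFN-beta (adjusted p = 0.00837), with 3 of the 4 other scalings, and by edgeR and limma voom.

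In the list of early antigen receptor targets, 2 of 28 rose and 3 fell (5 with equal totals), with a median of -0.24. Over all tested genes 6.03% rose and 2.9% fell, so the share that rose was near the background. The share that fell was above it, though it rests on 3 genes. At any fold 6 were higher and 13 lower, against 30.1% and 25.8% of all tested genes. Jun, a subunit of AP-1, was at 239, 193 and 166 without IFN-beta and 1356, 1408, 1269 and 1513 with it (log2 change 2.80, SE 0.10, adjusted p = 2.41e-11). Cd69, a surface protein that type I interferon is known to induce, was at 849, 731 and 657 without IFN-beta and 3094, 2895, 2427 and 2621 with it (log2 change 1.89, SE 0.09, adjusted p = 2.60e-07). For both genes every library with IFN-beta lay above every library without it. Tnfrsf9, the gene of the costimulatory receptor CD137, fell, at 628, 612 and 557 without IFN-beta and 82.6, 119, 99.05 and 52.4 with it (log2 change -2.81, SE 0.18, adjusted p = 1.90e-07). Fosl1 fell too (-3.34), but shares 50.2% of its stretches with other genes. Cd44, an adhesion receptor, fell (log2 change -1.81), a call lost without replicate 2 or replicate 3 of the libraries without IFN-beta (adjusted p 0.0581 to 0.0801). The receptor targets Nr4a1 (-0.63), Egr2 (-0.65), Myc (-0.75) and Il2ra (-0.14) did not pass. Of the NF-kB list 4 of 19 rose and 2 fell, with a median of 0.82 and a lowest log2 change of -3.53. Those that rose included the inhibitor gene Nfkbie (129.7 ± 18.8 to 584 ± 35.8; log2 change 2.17, SE 0.10, adjusted p = 1.69e-08), Bcl3 (2.07) and the adhesion ligand Icam1 (214 ± 20.5 to 1116 ± 69.4; log2 change 2.38, SE 0.09, adjusted p = 8.97e-11).

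The chemokine genes Xcl1, Ccl3 and Ccl4 fell, and Cxcl10 rose. Xcl1, which attracts XCR1-bearing dendritic cells, was at 1179, 707 and 728 without IFN-beta and 21.2, 54.04, 47.3 and 23.97 with it (log2 change -4.60, SE 0.26, adjusted p = 7.47e-10). Ccl3 was at 77.5, 70.1 and 73.2 without IFN-beta and 3.03, 12.9, 6.65 and 2.997 with it (log2 change -3.53, SE 0.39, adjusted p = 3.95e-05). Ccl4 was at 119, 89.2 and 96.5 without IFN-beta and 16.7, 21.3, 16.3 and 15.7 with it (log2 change -2.47, SE 0.21, adjusted p = 1.94e-05). Both encode chemokines that attract other leukocytes. Cxcl10, a ligand of CXCR3 and a classical interferon target, was at 29.7, 40.4 and 26.6 without IFN-beta and 3889, 3314, 3276 and 4074 with it (log2 change 6.79, SE 0.12, adjusted p = 2.25e-18). In each of these 4 genes the lowest library of the higher group lay over 4 times above the highest of the other. Gzmb, the granzyme B gene, had 1 read without IFN-beta and 220 with it, a rate 69.4 times as high (95% interval of counting error 12.3 to 2750). The cytokine gene Lif had 3 reads and 464, a rate 48.8 times as high (95% interval of counting error 16.6 to 237), and was at 125, 107, 82.05 and 35.96 with IFN-beta; its log2 change of 5.47 was 6.42 without replicate 1 of the libraries without IFN-beta. Tnf (-0.69), Ccl5 (-0.22) and Nkg7 (-0.23) did not pass.

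Surface regulators moved in both directions. Cd274, the PD-L1 gene, was at 633, 735 and 687 without IFN-beta and 3457, 3646, 3275 and 2789.9 with it (log2 change 2.26, SE 0.09, adjusted p = 4.83e-10). Cd86, a ligand of CD28 and CTLA-4, was at 42.9, 44.6 and 44.9 without IFN-beta and 1115, 1168, 1152 and 1088 with it (log2 change 4.65, SE 0.09, adjusted p = 2.23e-17). Cd160, a receptor of cytotoxic lymphocytes, fell, at 157, 106 and 111 without IFN-beta and 12.1, 5.33, 6.65 and 6.74 with it (log2 change -3.89, SE 0.28, adjusted p = 1.07e-07). Cd5, which dampens antigen receptor signals, was at 579, 648 and 649 without IFN-beta and 106, 115, 104 and 52.4 with it (log2 change -2.77, SE 0.19, adjusted p = 3.23e-07), and was the only 1 of 10 T cell identity genes that passed (3 fell with equal totals). Ubash3b, a phosphatase gene of the same pathway, was at 112, 132 and 115 without IFN-beta and 12.1, 12.2, 8.13 and 11.2 with it (log2 change -3.35, SE 0.23, adjusted p = 1.05e-07). Cd6 (-1.58) and Rasgrp1 (-1.43) fell. The TNF family ligand genes Tnfsf11 (log2 change -3.06, SE 0.43, adjusted p = 0.00116) and Tnfsf14 (log2 change -2.35, SE 0.27, adjusted p = 6.69e-04) fell. Pdcd1 (-0.71) and Ctla4 (0.18) did not pass.

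Of the cytokine receptor chains 4 of 19 rose and none fell (1 with equal totals). Both chains of the IL-12 receptor were among them. Il12rb1 was at 11.5, 14.9 and 11.6 without IFN-beta and 79.6, 98.9, 115 and 95.9 with it (log2 change 2.84, SE 0.21, adjusted p = 6.49e-07). Il12rb2 was at 87.4, 89.2 and 91.5 without IFN-beta and 762, 772, 618 and 629 with it (log2 change 2.94, SE 0.10, adjusted p = 5.71e-12). Il12rb2 shares 36.95% of its stretches with other genes. Il18r1 was at 280.3, 384 and 422 without IFN-beta and 1482, 1357, 1311 and 1222 with it (log2 change 1.90, SE 0.11, adjusted p = 2.13e-06). Eomes, a transcription factor of effector and memory CD8 T cells, was at 159.9, 136 and 156 without IFN-beta and 1329.8, 1472, 1116 and 1181 with it (log2 change 3.07, SE 0.10, adjusted p = 1.20e-12), and Zeb1 changed by 1.91. Tbx21, the T-bet gene, had a log2 change of 1.87 that did not pass (adjusted p = 0.11). It passed without replicate 1 of the libraries without IFN-beta and without replicate 4 of those with it (adjusted p 0.0122 to 0.0363). Id3, linked to naive and memory cells, fell (43.3 ± 8.23 to 6.60 ± 3.93; log2 change -2.66, SE 0.38, adjusted p = 0.00305). Where 2.9% of all tested genes fell, it was the only 1 of 24 naive-state genes called. Without replicate 4 of the libraries with IFN-beta 2 were, and with equal totals 3 were. Ccr7 (0.48), Il7r (0.43) and Tcf7 (-0.10) did not. Ccnd2, a G1 cyclin, was at 1049, 905 and 873 without IFN-beta and 6173, 6181, 5927 and 5047 with it (log2 change 2.63, SE 0.08, adjusted p = 5.13e-12). Tyms, which makes thymidylate for DNA synthesis, fell (69.3 ± 15.2 to 4.87 ± 2.54; log2 change -3.69, SE 0.39, adjusted p = 1.99e-05).

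The lists of ribosome biogenesis, glycolysis and cholesterol synthesis had medians below 0. The 27 ribosome biogenesis genes had a median of -0.90, and 25 were lower at any fold, where 25.8% of all tested genes were. By more than 2-fold 3 were lower, against 2.9% of all tested genes. With 1 library left out that last count was 2 to 6, the 6 without replicate 1 of the libraries with IFN-beta. Rrp12, 1 of the 3, lost its call without any 1 of the libraries without IFN-beta. So it did without replicate 3 or 4 of those with it (adjusted p 0.0508 to 0.16 over these fits), and by DESeq2. Fbl, the fibrillarin gene, was at 193, 151 and 186 without IFN-beta and 37.1, 65.5, 51.7 and 52.4 with it (log2 change -1.77, SE 0.18, adjusted p = 0.00259). Utp20 was at 969, 932 and 999 without IFN-beta and 319.8, 358, 317 and 263 with it (log2 change -1.63, SE 0.09, adjusted p = 3.42e-05). The nucleolin gene Ncl had a log2 change of -0.43 and did not pass the 2-fold test. In the glycolysis and nutrient transport list 7 of 23 fell and 1 rose (median -0.76), where 2.9% of all tested genes fell and 6.03% rose. The hexokinase genes went opposite ways. Hk1 was at 203, 198 and 249 without IFN-beta and 1124, 1314, 1086 and 1149 with it (log2 change 2.43, SE 0.09, adjusted p = 2.24e-10). Hk2, the isoform induced by activation, was at 85.7, 102 and 83.1 without IFN-beta and 37.1, 29.7, 17.0 and 17.2 with it (log2 change -1.87, SE 0.25, adjusted p = 0.0186), a call lost without replicate 2 of the libraries without IFN-beta and without replicate 3 or 4 of those with it (adjusted p 0.0637 to 0.0989). The glutamine transporter gene Slc1a5 (-1.64) and the transferrin receptor gene Tfrc (-1.54) fell. Pgam1 (-2.02) and Pgk1 (-1.88) fell with 34.9% and 52.8% of their stretches shared with other genes.

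In the cholesterol and fatty acid list 4 of 22 fell (median -0.62). Over all tested genes 2.9% fell, the share to set beside this count and those of the lists below. Cyp51, a sterol demethylase, was at 265, 304 and 249 without IFN-beta and 79.6, 95.9, 63.6 and 69.7 with it (log2 change -1.82, SE 0.14, adjusted p = 1.62e-04). Acaca, the first enzyme of fatty acid synthesis, was at 417, 439.7 and 506 without IFN-beta and 118, 116, 104 and 95.1 with it (log2 change -2.06, SE 0.11, adjusted p = 3.00e-07). Idi1, an enzyme of isoprenoid synthesis, was at 274, 265 and 183 without IFN-beta and 18.9, 9.89, 12.6 and 8.99 with it (log2 change -4.18, SE 0.24, adjusted p = 2.24e-09). Acaca and Idi1 share 26.8% and 23.6% of their stretches with other genes. Abca1, which exports cholesterol, rose by 1.75, a call lost with equal totals. The 26 tested nuclear genes of oxidative phosphorylation had a median of -0.14, and none passed. Of 64 ribosomal protein genes 5 fell, from Rpl13 (-1.41) to Rpl27 (-1.85); those named share 21.6% and 22.1% of their stretches with other genes. With equal totals 14 ribosomal protein genes fell. Of 15 genes often taken as references 3 fell, among them Pgk1 and Ppia (-1.76). Actb (-0.13), Tbp (0.22) and Ywhaz (0.23) did not pass. Under equal totals the medians of all these lists were lower, at -1.42 for ribosome biogenesis, -1.28 for glycolysis and -1.14 for cholesterol, against -0.50 for all genes, and 17, 10 and 9 of their members fell.

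A larger share of the falls than of the rises was in genes that share over 20% of their 75-base stretches with transcripts of other genes. Copies elsewhere in the genome and genes that overlap at the same place were not told apart. Among the 776 tested genes that share over 20% of their 75-base stretches with another gene, 59 (7.603%) fell and 43 (5.541%) rose. Among the 8607 that share at most 20%, 199 (2.312%) fell and 513 (5.96%) rose. How the authors' counting treated such reads is not given in the sources used here, and its part in the falls was not tested. Of the 20 genes with the largest falls, 7 share 20% or more. They are Erdr1 (34.99%), Idi1, Timm8a1 (39.9%), Hvcn1 (37.4%), Carnmt1 (20.02%), Srp54a (68.3%) and Hnrnpf (55.95%). Erdr1, a gene of the pseudoautosomal region, had the largest fall of these 20, at 107, 132 and 183 without IFN-beta and 0.758, 0, 0.739 and 2.997 with it (log2 change -6.21, SE 0.44, adjusted p = 1.22e-08). Hnrnpf, a splicing factor gene, was at 5150.5, 4787 and 4394 without IFN-beta and 571, 621, 559 and 669 with it (log2 change -2.98, SE 0.08, adjusted p = 8.74e-14). The groups of both genes lie far apart, with little spread inside a group for Hnrnpf.

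Other large falls were in genes with little or no shared sequence. Sytl2, involved in granule release, was at 95.6, 129.6 and 76.5 without IFN-beta and 8.34, 3.04, 3.70 and 3.75 with it (log2 change -4.20, SE 0.34, adjusted p = 2.88e-07). Itm2a, a membrane protein gene of activated T cells, was at 384, 401 and 298 without IFN-beta and 39.4, 33.5, 31.04 and 32.2 with it (log2 change -3.36, SE 0.15, adjusted p = 1.24e-10). Rgs16, a regulator of G protein signals, was at 331, 338 and 274 without IFN-beta and 43.2, 53.3, 50.3 and 27.7 with it (log2 change -2.86, SE 0.18, adjusted p = 1.29e-07). Bcat1, which acts on branched-chain amino acids, went from 96.3 ± 18.0 to 12.1 ± 4.42, Pitpnm2 from 329 ± 35.5 to 47.1 ± 14.1 and Ephx1, an epoxide hydrolase gene, from 145 ± 15.8 to 21.3 ± 4.85 (SD, n = 3 and 4). Septin9, a cytoskeletal GTPase gene, was at 382, 272 and 206 without IFN-beta and 29.6, 29.7, 29.6 and 29.97 with it (log2 change -3.18, SE 0.18, adjusted p = 7.65e-09). Grk4 was at 305, 339.8 and 406 without IFN-beta and 27.3, 42.6, 27.3 and 32.2 with it (log2 change -3.41, SE 0.17, adjusted p = 6.47e-10).

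**Figure D4:**
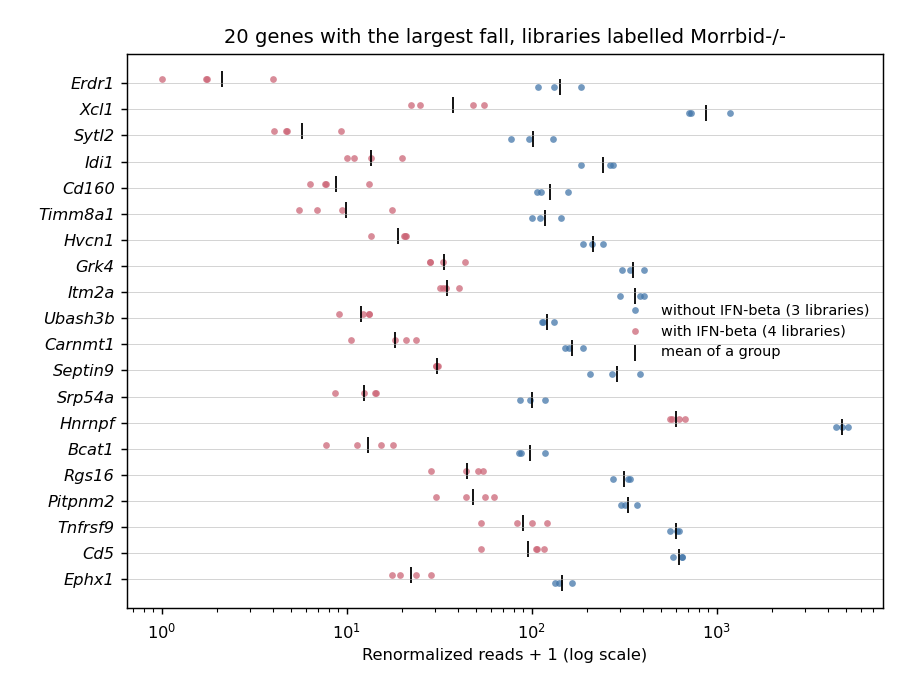
Renormalized reads plus 1 (x axis, log scale) of the 20 genes with the largest falls (y axis) in each library labelled Morrbid-/-; blue points, 3 libraries without IFN-beta, red points, 4 libraries with it, black ticks, group means. All red points of a gene lie to the left of its blue points, as the choice of genes required, and only Hnrnpf ends above a mean of 100 reads.

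The response was then set beside that of wild-type cells, 3 libraries without and 4 with IFN-beta, in 1 fit of all 14 libraries over 9885 genes. Wild-type cells had 644 genes higher (6.51%) and 267 lower (2.7%) by more than 2-fold. Of the 597 genes that rose in cells labelled Morrbid-/- and were tested in both, 551 also rose in wild type and none fell. Of 285 that fell, 198 also fell in wild type. A shift between the 2 tables that is the same in both genotypes cancels in the difference of the responses. By limma's test of the difference, the log2 change was lower in those labelled Morrbid-/- for 91 genes (0.921%) and higher for 36 (0.364%). In 87 of the 91 it was above 0 in both genotypes. The genotype names are the labels, which the few reads of Morrbid itself could not settle.

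Of those 91 genes, 76 were among the genes that rose and 48 belonged to the 12 interferon-linked lists. All 10 tested guanylate-binding protein genes and all 7 tested genes of the immunity-related GTPase list rose less in those labelled Morrbid-/-. The 7 include Gvin1, a very large GTPase, and Tgtp1 and Tgtp2, and the reads of these 3 may be shared. The count with a lower log2 change was 3 of 10 in the list of OAS, Mx and related genes, 1 of 7 in the Schlafen family and 4 of 24 among the PML-body and other nuclear genes. The median response of the guanylate-binding proteins was 3.996 in those labelled Morrbid-/- and 5.41 in wild type, and that of the immunity-related GTPases 2.47 and 3.998.

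On the common scale, Gbp2 was at 297 ± 52.7 in wild type and 1047 ± 109.6 in those labelled Morrbid-/- without IFN-beta, and 33026 ± 615 and 25595 ± 619.8 with it (SD). The response differed by -2.19, SE 0.13, adjusted p = 4.22e-11. Iigp1 was at 80.5 ± 9.76 in wild type and 432 ± 56.96 in those labelled Morrbid-/- without IFN-beta, and 6662 ± 456 and 8925 ± 322 with it, a difference of -1.98, SE 0.13, adjusted p = 2.11e-10. Irgm1 was at 396 ± 30.99 in wild type and 885 ± 91.6 in those labelled Morrbid-/- without IFN-beta, and 4715 ± 53.4 and 4270.3 ± 83.9 with it, a difference of -1.30, SE 0.10, adjusted p = 7.52e-09. Ifit3 was at 11.7 ± 3.37 in wild type and 63.9 ± 16.1 in those labelled Morrbid-/- without IFN-beta, and 5676 ± 541 and 5959 ± 437 with it, a difference of -2.29, SE 0.20, adjusted p = 2.93e-08. In these 4 genes libraries labelled Morrbid-/- lay above wild-type libraries without IFN-beta, and the ratio between the genotypes was closer to 1 with it. The same held for Usp18, at 16.9 ± 3.29 in wild type and 44.98 ± 0.481 in those labelled Morrbid-/- without IFN-beta, and 5910.2 ± 234 and 6132 ± 163 with it (-1.32, SE 0.13, adjusted p = 2.60e-07). The difference tested is made of the 2 genotype differences, which are given here as a description. Over the 91 genes the median log2 difference of those labelled Morrbid-/- from wild type was 0.93 without IFN-beta and -0.17 with it. Without IFN-beta 86 of the 91 were higher in those labelled Morrbid-/-, and with it 70 were lower.

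The 36 genes with a higher log2 change in those labelled Morrbid-/- were of several kinds. In 30 of them the change in wild type was below 0, and in 9 that in those labelled Morrbid-/- was too. The change was larger in size in those labelled Morrbid-/- for 16 and smaller for 20. None of the 36 was in the interferon-linked lists, and 33 did not change by more than 2-fold in cells labelled Morrbid-/-. Over them the median difference of those labelled Morrbid-/- from wild type was -0.13 without IFN-beta and 0.58 with it, and all 36 were higher in those labelled Morrbid-/- with IFN-beta. Chd4, a chromatin remodeller, had a log2 change of 0.59 in those labelled Morrbid-/- and -0.01 in wild type (0.60, SE 0.10, adjusted p = 0.00123). The values were 0.64 and -0.06 for the histone demethylase gene Kdm2b (0.71, SE 0.12, adjusted p = 0.00103), and 0.48 and -0.53 for Bcl9l, a coactivator of beta-catenin (1.02, SE 0.16, adjusted p = 4.74e-04). Akap2 had 1.88 against 1.01, and shares 82.2% of its stretches with other genes. For the genes with the largest rises and falls, a difference was called for 7 of 40. The others included Mx1 (10.96 and 11.28), Rsad2 (9.41 and 9.94), Slfn5 (8.49 and 8.60), Xcl1 (-4.60 and -4.37) and Tnfrsf9 (-2.80 and -2.65). A difference that was not called does not show that the responses were alike. Bcl2l11 changed by -0.52 in those labelled Morrbid-/- and -0.18 in wild type (-0.34, SE 0.17, adjusted p = 0.454).

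**Figure D5:**
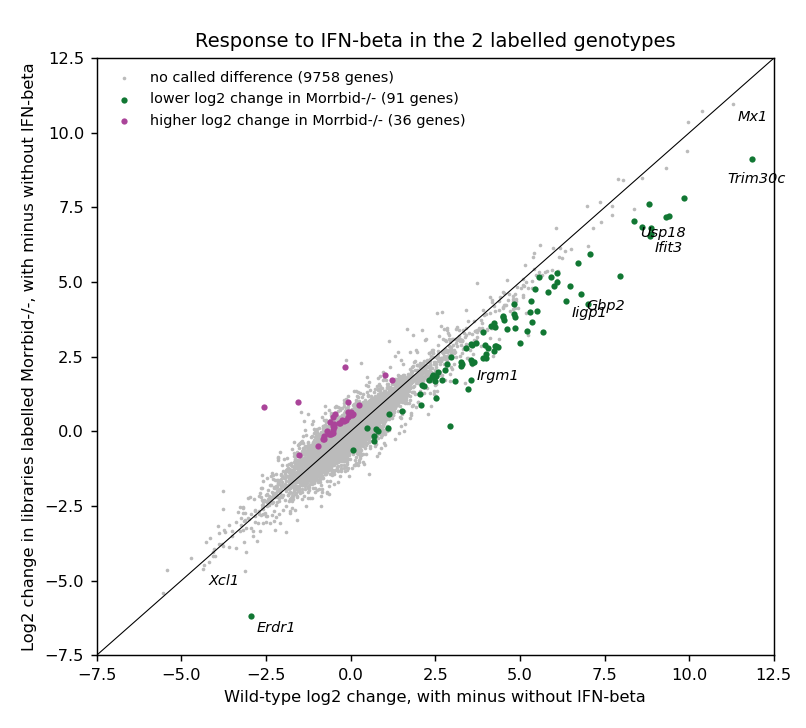
Log2 change with IFN-beta in libraries labelled Morrbid-/- (y axis) against that in wild-type libraries (x axis) for 9885 genes in the fit of all 14 libraries; green, 91 genes with a lower log2 change in those labelled Morrbid-/-, purple, 36 with a higher one, grey, the others, line, equal responses. Most green points lie at rises of more than 2-fold and below the line, while Mx1 and Xcl1 lie close to it.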

How the data were processed

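Total RNA was made into stranded libraries and sequenced as 75-base read pairs, per the labels' protocols. The authors deposited 2 tables of gene counts divided by size factors, 1 for the libraries without IFN-beta and 1 for those with it, so that their values are a normalized signal and not raw counts. Per the submitters' processing notes, STAR 2.5, featureCounts, Trimmomatic and DESeq2 were used, with the builds GRCm38 and mm10, with no settings, and how reads matching several genes were treated is not given in the sources used here. In every column labelled Morrbid-/- all values were whole multiples of 1 step (100% within 0.01), and dividing by it recovered the reads. The tables were joined by gene identifier. The 7 libraries were rescaled together with edgeR 4.0.16 (TMM) to their mean effective size of 4649901 reads, and log2(reads + 1) was fitted with limma 3.58.1 in R 4.3.3, with a mean-variance trend, for genes with a mean of the 2 group means of at least 10. The call over 2-fold is limma's treat test, that at any fold its moderated test, both with Benjamini-Hochberg adjustment over all tested genes. Fold changes are on the log2(reads + 1) scale and understate those of low genes. Since the values are deposited as a normalized signal, the count tests of edgeR and DESeq2 1.42.0 on recovered reads were alternatives: they called 641 higher and 431 lower, and 551 and 267. Rate ratios carry exact intervals for counting error only, as do floors of 3 reads over a group. Shared stretches are the share of a gene's 75-base stretches, in GENCODE transcripts with both strands pooled, also found in a transcript of another gene. The joined tables held 12539 genes, 2193 were only in the table without IFN-beta and 304 only in the other, and these were not compared. The fits were tested on simulated data.

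The genes and lists were chosen with earlier results of these data known. Named by rule were the 20 genes with the largest call in each direction with no overlap between groups, no model name and a mean of 50 or more, up to 5 called members with the largest change in each list, receptor, signalling and identity genes whatever their result, and 8 genes in each direction for the difference between genotypes. Other list members named in the text, Tiparp and Ncl for example, were chosen after their values were seen. The values of some genes are not reported here. Alternatives were other pseudocounts, filters, scalings, tests, thinning to equal depth, a replicate block and each library left out in turn. Counts per list under other scalings and left-out libraries, and counts among genes with little shared sequence, were chosen after seeing the data. Replicates of a group differed by more than sampling noise in every pair compared.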

Additional observations from a re-analysis of the deposited data

Results flagged for a closer look

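In 7 genes 1 of the 4 libraries with IFN-beta lay apart from the other 3, by a gap beyond the 95% critical value of Dixon's test for 4 samples. The value was 8.34 reads for Sytl2 in replicate 1, 12.6 for Hvcn1 in replicate 3 and 21.3 for Ccl4 in replicate 2. In replicate 4 it was 1220.4 for Icam1, 18.7 for ATP6, 1855 for Rps6 and 265 for Brca1. Chance gives such a gap in about 1 in 20 groups. More genes than these 7 were looked at, so the 7 cannot be told apart from chance.

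The response to IFN-beta differed between the libraries labelled Morrbid-/- and wild type, by limma's test of the difference itself, in 22 of the genes chosen for the largest rises and falls or the clearest difference. Other genes with a called difference are counted above. The rise was smaller in those labelled Morrbid-/- on the log2 scale for the GTPase genes Gbp2 (-2.19), Gbp11 (-2.18), Gbp6 (-1.85), Gbp7 (-1.48), Iigp1 (-1.98), Tgtp1 (-1.55), Igtp (-1.41) and Irgm1 (-1.30). So it was for the antiviral genes Ifit3 (-2.29), Oasl1 (-2.13), Oasl2 (-1.18), Cmpk2 (-2.03), Usp18 (-1.32) and Trim30c (-2.75). Some of these rest on wild-type levels near 0 without IFN-beta. Those were 0, 3.23 and 0 for Trim30c and 2.79, 0 and 0 for Oasl1. For Cmpk2 they were 0, 3.23 and 3.59, and for Gbp11 1.40, 1.62 and 0. The sizes of the differences in these genes are therefore inexact. Erdr1 fell further in those labelled Morrbid-/-, with a log2 change of -6.18 against -2.94 in wild type, the largest difference of these genes (-3.23). The log2 change was higher in those labelled Morrbid-/- for Brca1 (1.06), Bcl9l (1.02), Akap2 (0.86), Kdm2b (0.71), Zhx2 (0.63), B4galnt1 (0.62) and Chd4 (0.60). For B4galnt1 it was -0.16 in those labelled Morrbid-/- and -0.77 in wild type, and for Bcl9l 0.48 and -0.53.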

How the results depend on the processing

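The comparison sets 3 libraries against 4 from separately deposited tables of different depth, so changes of genes with few reads without IFN-beta are the least exact. With equal totals, 387 genes were higher and 916 lower by more than 2-fold, and 1136 and 5885 at any fold; these totals include the interferon-linked reads themselves. Requiring a mean of 50 reads tests fewer genes and left 184 lower, and counting only genes that share at most 5% of their stretches left 161 lower and 47 with a lower log2 change in those labelled Morrbid-/- than in wild type. Without limma's trend 16 genes had a higher and 59 a lower log2 change in those labelled Morrbid-/-; the cause was not tested. The other alternatives kept each of these counts within 1.5 times, but not always the same genes. Of the 36 genes with a higher log2 change in those labelled Morrbid-/-, 18 were called again after thinning to equal depth. Without replicate 2 of the libraries labelled Morrbid-/- without IFN-beta, 21 were. Of the 91 with a lower log2 change, 74 and 79 were called again in these 2 fits. Of the genes recomputed singly, none called over 2-fold changed direction. Among those not called, Cd68 (-0.08) went up to 0.19 and Ifng (-0.19) to 0.04 with 1 library left out, Jak1 (0.09) was at -0.07 with upper-quartile scaling, and with equal totals Jak1, Psma5, Bcl9l, Ddx3y and Uty were below 0. Leaving out 1 library gave 565 to 607 genes higher and 229 to 285 lower. Same-numbered libraries of the 2 groups did not deviate together (correlations 0.006, 0.007 and 0.023 over genes). Whether they came from the same animals is not labelled, and these correlations cannot show it, since deviations of single libraries can hide it. With the replicate number as a block, 600 genes were higher and 249 lower by more than 2-fold, 2869 and 2417 at any fold, and 39 and 96 had a higher and a lower log2 change in those labelled Morrbid-/-.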
